A study of Mus musculus with 24 samples.

Results

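Amino acid carriers are the solute carrier proteins that move amino acids across the plasma and lysosomal membranes. Here they were taken as every gene of the 7 families Slc1, Slc3, Slc6, Slc7, Slc36, Slc38 and Slc43 whose name stood on the array and for which at least 1 probe was kept in the authors' normalized table. The array named 60 such genes, and 40 of them met the rule. Where several probes of 1 gene were kept, the probe brightest on average across the arrays stood for the gene. Of the 40, 39 passed the filter on dim probes, and they stand among the 21495 genes of the array that passed it.

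Liver mRNA was measured on 24 one-colour Agilent arrays of 60-base probes, 1 array per male mouse aged 12 weeks, to ask how hepatocyte p110α bears on the response to feeding and fasting. The 4 groups of 6 mice were LWT_Fed, LWT_Fasted, LKO_Fed and LKO_Fasted. All mice carried floxed p110α (Pik3ca) alleles on a C57BL/6J background. LWT mice were littermates without Cre, and LKO mice carried 1 albumin-Cre transgene, which deletes p110α in hepatocytes only. The other cells of the liver keep the gene, and LKO mice differed from LWT mice by the transgene as well as by the deletion. Fed mice ate ad libitum, fasted mice had no food for 24 h, and all mice were killed at ZT16, that is 16 h after lights on.

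Hepatocytes take up most of the amino acids that reach the liver from the gut and from muscle. In fasting they use them for gluconeogenesis and ureagenesis, and in the fed state for protein synthesis. Uptake runs through sodium-coupled carriers (systems A, N, ASC and glycine), cation carriers and exchangers built from a heavy and a light chain, proton-coupled carriers release amino acids from the lysosome, and several of these genes are known targets of insulin, glucagon or the amino acid stress response.

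Values are quantile-normalized log2 median signals, so 1 unit is a doubling. Fold changes and their standard errors (SE) came from limma, fitted to all probes and all 24 arrays with slide as a term and with array weights, and p-values were adjusted over all 32197 probes that passed the filter. A gene was called where the adjusted p did not exceed 0.05 and the fold change was above 1.5. Where a gene is said to have risen, fallen or differed by less than 1.5-fold, it passed the first condition alone. Because arrays are weighted, fold changes need not equal differences of plain means. A probe is well above background where the scanner software marks its signal so. In whole liver, fewer cells of a type and less RNA per cell cannot be told apart.

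On the 24 arrays 54.7% to 63.0% of spots were well above background and no spot was saturated. The Pik3ca probe was not lower in arrays labelled LKO. Its log2 fold change in LKO against LWT was 0.58 (SE 0.11, adjusted p = 0.000604) in fed mice and -0.02 (SE 0.12, adjusted p = 0.924) in fasted mice. Whether the probe lies in the deleted exons is not given in the sources used here, so LKO and LWT below mean the arrays labelled so. The lowest array weights were those of LWT_Fed replicate 3 (0.32), LKO_Fasted replicate 4 (0.355) and LWT_Fasted replicate 2 (0.441), against a median of 1.14 over all arrays. By Dixon's criterion LKO_Fasted replicate 4 stood apart from the other 5 arrays of its group for 5 carriers and LWT_Fed replicate 3 for 4, namely Slc36a4, Slc38a7, Slc38a10 and Slc6a8. No other array did so for more than 1 carrier. Where leaving out 1 of these arrays changed a call of a carrier named below, the value without it is given. Hepatocyte markers were bright in every group, the 6 summing to a median log2 signal of 21.1 in LWT_Fed and 21.0 in LKO_Fasted.

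Among markers of other tissues, the 3 measured for adipose tissue summed to log2 signals of 8.92 to 10.25 in LWT_Fed, 8.44 to 12.42 in LWT_Fasted, 8.43 to 8.61 in LKO_Fed and 8.28 to 8.81 in LKO_Fasted. The 3 erythroid markers summed to 13.69 to 14.18 in LWT_Fed, 12.72 to 13.77 in LWT_Fasted, 12.79 to 13.90 in LKO_Fed and 12.20 to 13.40 in LKO_Fasted. Both sums were therefore lower in LKO arrays at the median. In each set 1 gene, Cfd or Alas2, was called lower in LKO in both feeding states. The median log2 fold change of the 3 erythroid markers in LKO against LWT was -0.37 in fed and 0.15 in fasted mice. That of the 3 adipose markers was -0.12 and -0.18. Of the 5 cholangiocyte markers 1 was called lower with fasting in each genotype and 1 lower in fed LKO mice. Of the 5 stellate cell markers 1 (Lrat) was called lower with fasting in both genotypes, and of the 5 endothelial markers 1 (Lyve1) was lower in fed LKO mice. Of the 6 pancreas markers 2 were measured and 3 were not well above background on any array. Of the 2, 1 (Cela2a) was called lower with fasting in both genotypes and higher in LKO in both feeding states. The other passed the adjusted p alone between genotypes and was lower in LKO in both feeding states. The part of these tissues in the results below was not tested.

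Fasting moved carriers in both directions. In LWT mice, 5 of 39 carriers rose (12.8%, against 4.83% of all genes called higher) and 3 fell (7.69%, against 5.25%). In LKO mice, 3 rose (7.69%, against 5.92%) and 5 fell (12.8%, against 6.94%), and 1 of the 3, Slc6a4, passed the filter only through its fasted groups. By the adjusted p alone, 13 rose and 8 fell in LWT, where 21.5% and 23.3% of all genes did so. In LKO the numbers were 7 and 9, where 20.4% and 22.9% of all genes did so. Without Slc6a4, 2 carriers were called higher in LKO, and 12 rose in LWT and 6 in LKO by the adjusted p alone. Signals of the fasted and fed groups were fully separate for 9 carriers in LWT (23.1%, against 21.6% of all genes) and for 10 in LKO (25.6%, against 22.1%). The median log2 fold change of the 39 was 0.05 in LWT and 0.0043 in LKO, where that of all genes was -0.0074 and -0.02. The list is described by these counts and has no test of its own. Without LKO_Fasted replicate 4, 9 carriers were called in LKO in place of 8, with Slc6a4 among them in both fits. The carriers called in both genotypes numbered 5 (12.8%, against 6.53% of all genes), namely Slc7a2, Slc6a16, Slc36a1, Slc6a6 and Slc7a7.

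**Figure D1:**
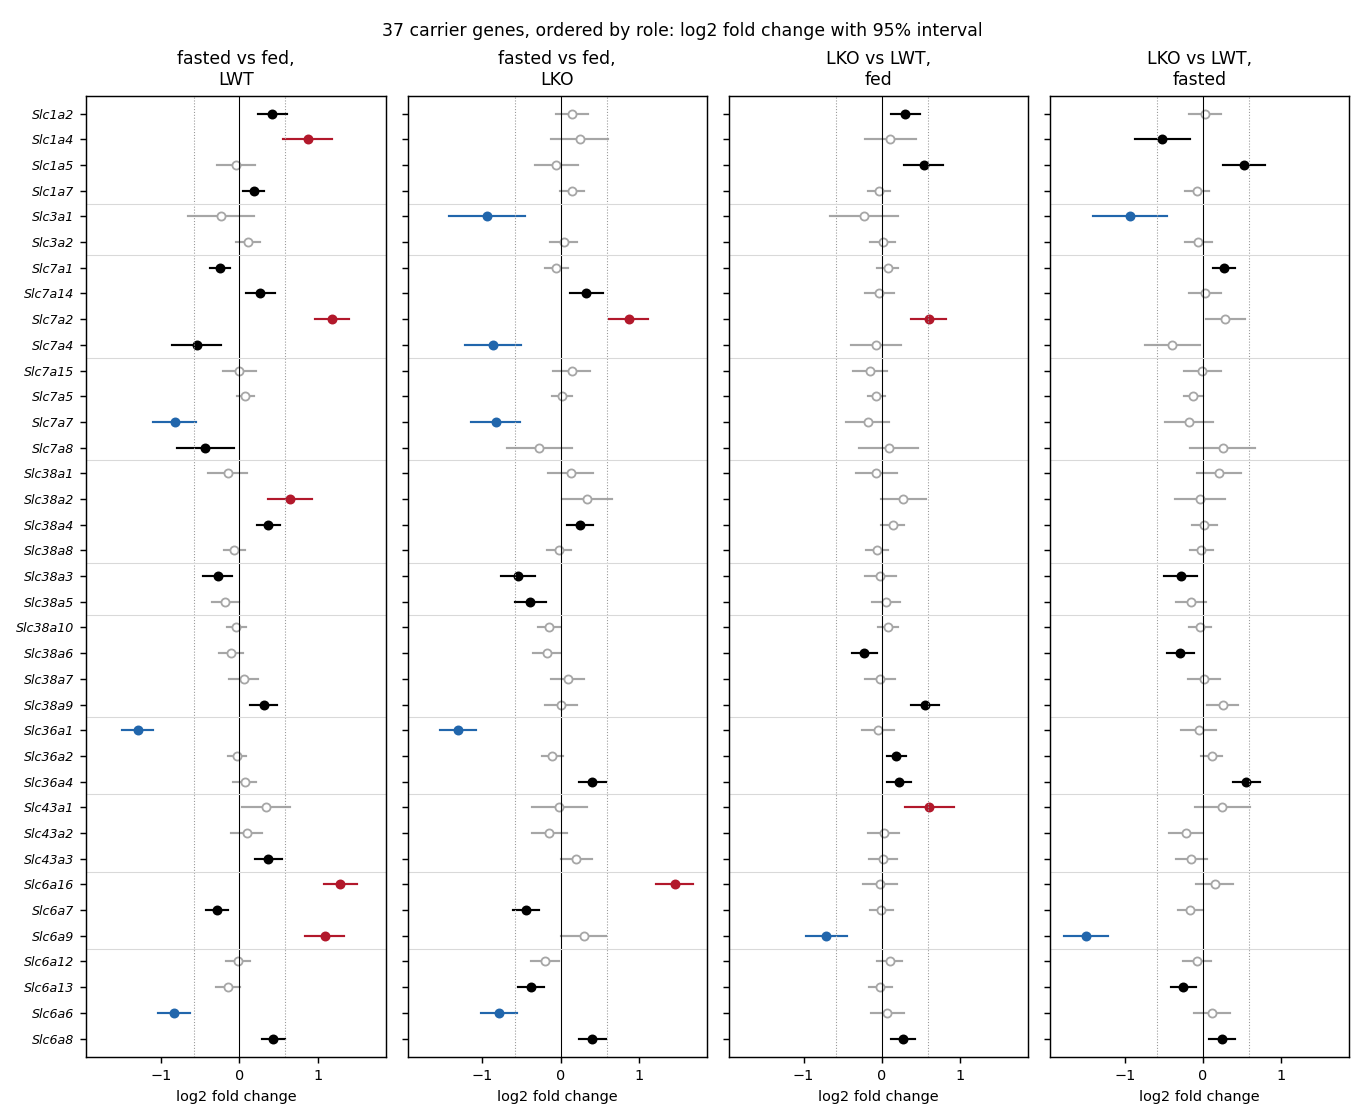
Log2 fold change (x axis) of 37 of the 39 carriers measured (Slc6a4 left out), ordered by role, in 4 panels: fasting within LWT, fasting within LKO, and LKO against LWT when fed and when fasted. Points are limma estimates with 95% intervals (red called higher, blue called lower, black past the adjusted p alone, open grey the rest, dotted lines at a 1.5-fold change), and Slc6a16 and Slc36a1 stand furthest from 0 in the fasting panels, and Slc6a9 in the genotype panels.

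Differences between genotypes were fewer. In fed mice, 2 of 39 carriers were higher in LKO (5.13%, against 2.74% of all genes) and 1 was lower (2.56%, against 1.23%). In fasted mice none was called higher, where 1.81% of all genes were, and 2 were called lower (5.13%, against 2.3%). Without LKO_Fed replicate 3 the fed count was 1 in place of 3, both higher calls being lost. By limma's adjusted p alone, 8 were higher and 3 lower in fed LKO mice, where 10.6% and 9.73% of all genes were, and 2 were lower without Slc6a4. In fasted LKO mice 4 were higher and 6 lower, where 11.1% and 11.7% of all genes were. Groups did not overlap for 3 carriers in each state (7.69%), against 8.62% of all genes when fed and 8.69% when fasted. Without LKO_Fasted replicate 4, 3 carriers were called in fasted mice in place of 2. Without LKO_Fasted replicates 1 and 2 together there were 4, with Slc1a5 and Slc36a4 added, but neither the labels nor the slides set this pair apart. The interaction subtracts the change with fasting in LWT from that in LKO. It called 1 of 39 carriers (2.56%), and the same 1 by the adjusted p alone. Of all genes, 3.53% were called in it, and 10.3% passed the adjusted p alone.

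The gene called in the interaction was Slc6a9, which encodes the glycine transporter GLYT1. Its probe lies at chr4:117541842-117541901 (mm9, + strand). In LWT_Fed the log2 signal was 13.30 at the lowest, 13.56 at the median and 13.91 at the highest array. In LWT_Fasted these were 14.49, 14.64 and 14.84. In LKO_Fed they were 12.74, 12.82 and 13.02, and in LKO_Fasted 12.50, 13.20 and 13.55. Every fasted LWT array was above every fed LWT array, every fed LKO array was below every fed LWT array, and the fed and fasted LKO arrays overlapped.

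In LWT mice Slc6a9 rose 2.12-fold with fasting (log2 fold change 1.09, SE 0.12, adjusted p = 2.2e-07). In LKO mice the log2 fold change was 0.30 (95% interval 0.01 to 0.58, adjusted p = 0.09). Slc6a9 was 1.63-fold lower in LKO than in LWT in fed mice (log2 fold change -0.71, SE 0.12, adjusted p = 0.000431). In fasted mice it was 2.82-fold lower (log2 fold change -1.498, SE 0.14, adjusted p = 1.78e-07). The interaction was -0.79 on the log2 scale (SE 0.18, 95% interval -1.17 to -0.41, adjusted p = 0.00921). Within slides 1, 2 and 3 it was -1.18, -0.53 and -0.96, and with each of the 24 arrays left out in turn it stayed between -0.91 and -0.68 and remained called. Slc6a9 was read by a single probe of the table.

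RefSeq lists 3 start sites for Slc6a9. From its table, the window of the most upstream one (GRCm38.p6, chr4:117835008-117835307, + strand, from 250 bases before to 50 after the start) is shown because the gene carried the clearest genotype result.
Slc6a9: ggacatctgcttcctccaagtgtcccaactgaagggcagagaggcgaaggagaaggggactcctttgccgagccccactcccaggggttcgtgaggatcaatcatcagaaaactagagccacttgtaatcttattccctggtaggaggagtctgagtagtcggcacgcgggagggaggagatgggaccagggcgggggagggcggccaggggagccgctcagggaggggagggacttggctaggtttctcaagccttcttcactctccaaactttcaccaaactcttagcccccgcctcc
None of the 3 windows held the FOXO core GTAAACA, the ATF4 composite element TGATGNAA or the CRE TGACGTCA on either strand, which says only that these letters are not in these windows.

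**Figure D2:**
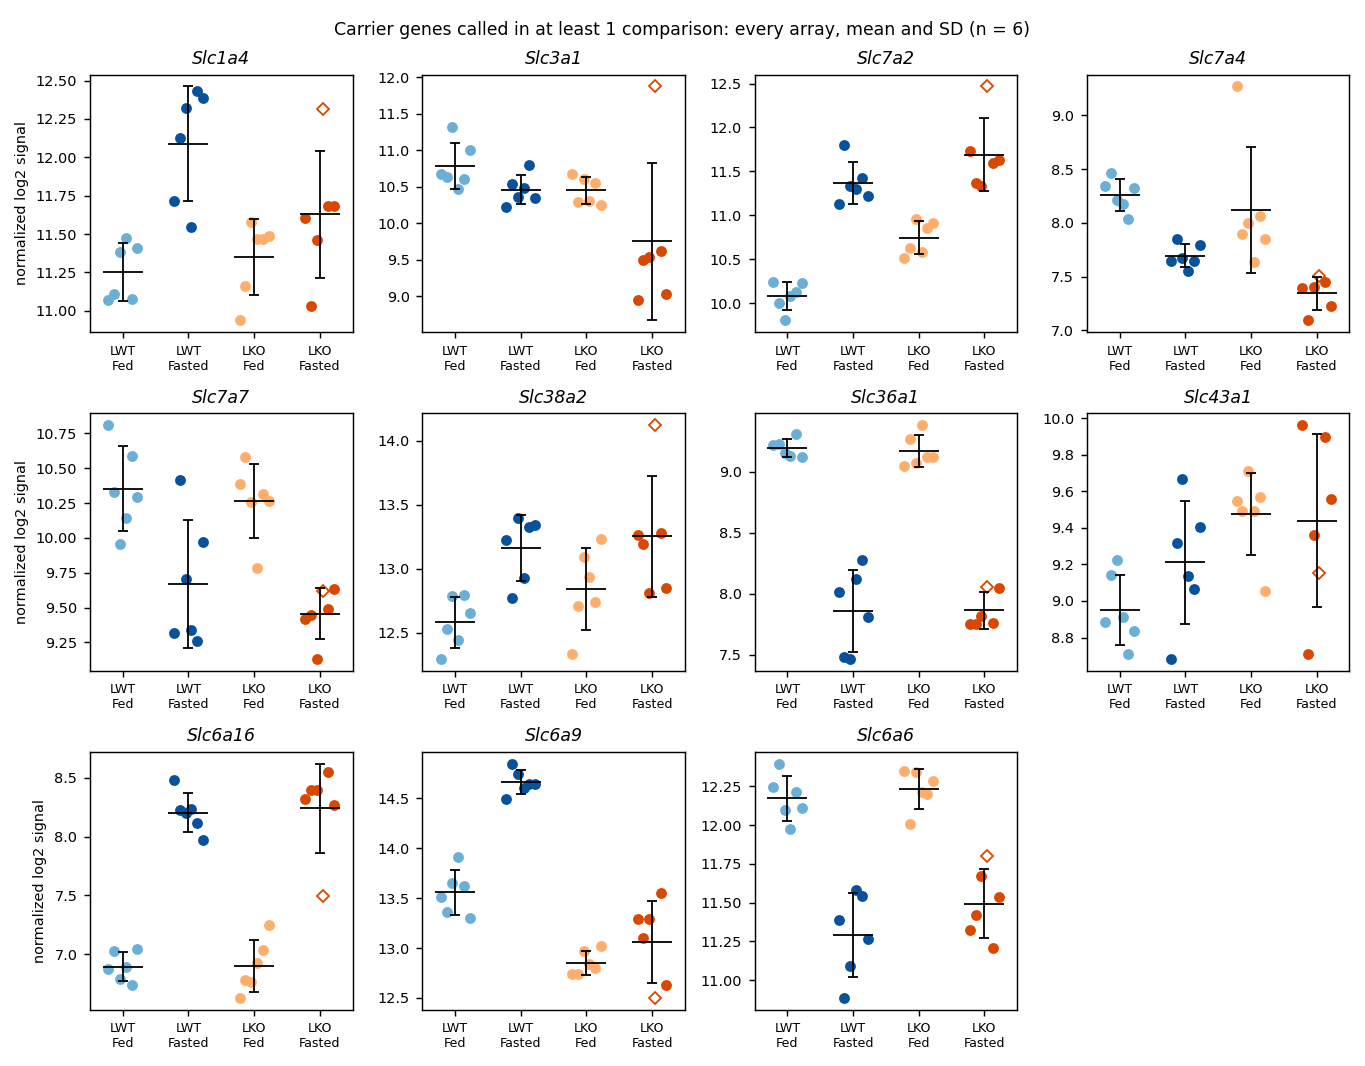
Normalized log2 signal (y axis) of 11 carriers called in at least 1 comparison (Slc6a4 left out), in every array of the 4 groups (x axis), with points for arrays, black lines for the mean and SD of 6 arrays and an open diamond for replicate 4 of LKO_Fasted. Slc6a9 rises from fed to fasted LWT arrays and is low in both LKO groups, and the open diamond lies far above the other LKO_Fasted arrays for Slc3a1.

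The neutral and acidic carriers of family Slc1 numbered 4 among those measured. Slc1a4 encodes ASCT1, an exchanger of alanine, serine and cysteine (probe at chr11:20202615-20202674, mm9, - strand). Its lowest, median and highest log2 signals were 11.07, 11.24 and 11.48 in LWT_Fed and 11.55, 12.23 and 12.44 in LWT_Fasted, without overlap. In LKO_Fed they were 10.94, 11.47 and 11.58, and in LKO_Fasted 11.03, 11.64 and 12.32, with overlap.

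Slc1a4 rose 1.83-fold with fasting in LWT (log2 fold change 0.87, SE 0.15, adjusted p = 7.12e-05). In LKO its log2 fold change was 0.24 (95% interval -0.12 to 0.61, adjusted p = 0.276). The difference between these changes was -0.63 (95% interval -1.11 to -0.15, adjusted p = 0.0892), which was not called. It was called without LWT_Fasted replicate 1 (-0.73, adjusted p = 0.0488), without LWT_Fasted replicate 4 (-0.83, adjusted p = 0.00712) and with the row on the slide as a term (-0.61, adjusted p = 0.0465). In fasted mice the difference between genotypes was -0.52 (adjusted p = 0.0326), which was not called. Of 24 fits that left out 1 array, 4 called it (without LKO_Fasted replicate 4, at -0.59 with adjusted p = 0.0161, or without LKO_Fasted replicate 5 or LWT_Fasted replicate 1 or 4), 6 did not pass even the adjusted p (without LKO_Fasted replicate 1, 2 or 3 or LWT_Fasted replicate 3, 5 or 6), and the values ran from -0.73 to -0.38 with a highest adjusted p of 0.144.

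Slc1a5, the glutamine carrier ASCT2, passed the adjusted p between genotypes and not with fasting. On the log2 scale LKO exceeded LWT by 0.53 (SE 0.12, adjusted p = 0.00305) when fed and by 0.52 (SE 0.13, adjusted p = 0.00567) when fasted, below the minimum fold in both. It was called when fed without LKO_Fed replicate 6 (0.60) or LWT_Fed replicate 4 (0.59), and when fasted without LKO_Fasted replicate 2 (0.61), LWT_Fasted replicate 3 (0.61) or LWT_Fasted replicate 6 (0.64). With fasting its values were -0.04 in LWT (95% interval -0.28 to 0.20) and -0.06 in LKO (95% interval -0.33 to 0.22). Slc1a2, the glutamate carrier GLT-1 that marks pericentral hepatocytes, rose 1.34-fold with fasting in LWT (adjusted p = 0.000441) and was 1.23-fold higher in fed LKO than in fed LWT mice (adjusted p = 0.0229). Slc1a7, the glutamate carrier EAAT5 of the retina, was dim, with mean log2 signals of 6.10 in LWT_Fed and 6.24 in LWT_Fasted. It rose 1.13-fold with fasting in LWT (adjusted p = 0.0279), but the difference on slide 1 was -0.06, against 0.18 and 0.29 on slides 2 and 3. Slc1a6 was the carrier that did not pass the filter, with 13 of 24 arrays well above background and mean authors' log2 values between 5.71 and 5.86 in the 4 groups.

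The cationic carriers gave 1 of the largest changes. Slc7a2 encodes CAT2, which takes up arginine, lysine and ornithine (probe at chr8:42003321-42003380, mm9, + strand). Its lowest, median and highest log2 signals were 9.81, 10.11 and 10.24 in LWT_Fed, 11.13, 11.32 and 11.80 in LWT_Fasted, 10.52, 10.74 and 10.96 in LKO_Fed and 11.34, 11.615 and 12.47 in LKO_Fasted. The fed and fasted arrays did not overlap in either genotype, and neither did the fed arrays of both genotypes.

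Slc7a2 rose 2.27-fold with fasting in LWT (log2 fold change 1.18, SE 0.105, adjusted p = 8.28e-09) and 1.83-fold in LKO (0.87, SE 0.12, adjusted p = 4.16e-06). In fed mice it was 1.52-fold higher in LKO than in LWT (0.60, SE 0.11, adjusted p = 0.000517). In fasted mice the difference was 0.29 (95% interval 0.04 to 0.53, adjusted p = 0.0887), and the interaction was -0.32 (95% interval -0.65 to 0.02, adjusted p = 0.222). The fed difference stood close to the minimum fold: without LKO_Fed replicate 3, 5 or 6 or LWT_Fed replicate 3 it was 0.54 to 0.58, with a highest adjusted p of 0.00267, and no longer called. Without LKO_Fasted replicate 4, the highest array of its group, the rise in LKO was 0.80 (adjusted p = 2.29e-06).

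Slc7a4 is a relative of the cation carriers (probe at chr16:17573050-17573109, mm9, - strand). Its log2 signal ran from 7.63 to 9.27 in LKO_Fed, with a median of 7.95, and from 7.09 to 7.501 in LKO_Fasted, with a median of 7.40. In LWT_Fed it ran from 8.03 to 8.46 and in LWT_Fasted from 7.56 to 7.85. Fed arrays were above fasted arrays in both genotypes without overlap. It fell 1.82-fold with fasting in LKO (-0.86, SE 0.17, adjusted p = 0.000337), but without LKO_Fed replicate 1, the array at 9.27, the change was -0.58 (adjusted p = 1.99e-05) and under the minimum fold. In LWT the change was -0.55 (SE 0.15, adjusted p = 0.00537), and it was called without LWT_Fasted replicate 6 (-0.62), without LWT_Fed replicate 5 (-0.59) and with the processed signal (-0.61).

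Slc7a1, the broadly expressed arginine carrier CAT1, fell 1.19-fold with fasting in LWT (adjusted p = 0.00221) and was 1.201-fold higher in LKO than in LWT in fasted mice (adjusted p = 0.00828). Slc7a14, a lysosomal member of this family, rose 1.204-fold with fasting in LWT (adjusted p = 0.0164) and 1.26-fold in LKO (0.33, adjusted p = 0.0112). LKO_Fasted replicate 4 stood apart for it (8.41, nearest array 7.75), and without that array the rise in LKO was 0.27 (adjusted p = 0.0146). Another probe of its RefSeq transcript was well above background on 0 of 24 arrays. By the adjusted p, 2 of the 4 cation carriers rose and 2 fell in LWT, where 21.5% and 23.3% of all genes did so. In LKO 2 rose and 1 fell, where 20.4% and 22.9% of all genes did so.

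Of the heteromeric exchangers, both heavy chains were measured. Slc3a2, the heavy chain CD98 that pairs with most light chains, gave log2 fold changes between -0.06 and 0.11 over the 4 pairs of groups, and no adjusted p passed, the lowest being 0.256. A second probe of nearly the same brightness, designed on another RefSeq transcript of the gene, gave -0.27 with fasting in LKO (SE 0.11, adjusted p = 0.0404). Slc3a1, the heavy chain rBAT (probe at chr17:85463142-85463201, mm9, + strand), had log2 signals of 10.47 to 11.32 in LWT_Fed, 10.22 to 10.79 in LWT_Fasted and 10.25 to 10.68 in LKO_Fed. In LKO_Fasted the 6 arrays gave 8.94, 9.03, 9.49, 9.54, 9.62 and 11.88, the last being replicate 4. All LKO_Fasted arrays but that one were below every array of the other groups.

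Slc3a1 fell 1.92-fold with fasting in LKO (-0.94, SE 0.23, adjusted p = 0.00226) and was 1.90-fold lower in LKO than in LWT in fasted mice (-0.93, SE 0.23, adjusted p = 0.0051). Both calls rest on how replicate 4 is weighted. With no array weights the values were -0.70 (adjusted p = 0.0699) and -0.71 (adjusted p = 0.114), and without replicate 4 they were -1.13 (adjusted p = 2.14e-06) and -1.12 (adjusted p = 1.38e-05). On slide 1, which carried replicate 4, the differences were 0.41 and 0.24, against -1.03 and -0.71 on slide 2 and -1.47 and -1.65 on slide 3. The interaction was -0.70 (95% interval -1.34 to -0.06, adjusted p = 0.155) and, without replicate 4, -0.90 (adjusted p = 0.00472).

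Among light chains, 4 were measured. Slc7a7 encodes y+LAT1, which exports cationic amino acids (probe at chr14:54989166-54989225, mm9, - strand). Its lowest, median and highest log2 signals were 9.96, 10.31 and 10.81 in LWT_Fed, 9.26, 9.52 and 10.42 in LWT_Fasted, 9.78, 10.29 and 10.58 in LKO_Fed and 9.13, 9.47 and 9.64 in LKO_Fasted. The groups overlapped in LWT and did not in LKO.

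Slc7a7 fell 1.77-fold with fasting in LWT (-0.83, SE 0.13, adjusted p = 2e-05) and 1.78-fold in LKO (-0.83, SE 0.15, adjusted p = 9.87e-05), with no call between genotypes. In LWT the difference on slide 1 was -0.08, against -1.06 and -0.92 on slides 2 and 3. Macrophages express this gene as well. The 6 Kupffer cell markers summed to log2 signals of 14.62 to 15.15 in LWT_Fed, 13.95 to 15.18 in LWT_Fasted, 14.32 to 15.07 in LKO_Fed and 13.91 to 16.12 in LKO_Fasted. None of the 6 was called with fasting, and 1 passed the adjusted p alone, being lower with fasting in LWT. The median of their log2 fold changes was -0.37 in LWT and 0.02 in LKO, and the part of these cells in the result was not tested. Slc7a8, the light chain LAT2, passed the adjusted p with fasting in LWT (-0.44, SE 0.18, adjusted p = 0.0494) and was called there without LWT_Fasted replicate 1 (-0.60, adjusted p = 0.0057). Slc7a5, the leucine exchanger LAT1, was well above background on 18 of 24 arrays and its log2 fold changes lay between -0.13 and 0.07, with no adjusted p under 0.128. Slc7a15 passed in no comparison either (-0.15 to 0.14).

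The sodium-coupled carriers of family Slc38 carry glutamine, alanine and other neutral amino acids. Slc38a2, the system A carrier SNAT2 (probe at chr15:96518491-96518550, mm9, - strand), had median log2 signals of 12.6 in LWT_Fed and 13.3 in LWT_Fasted. The groups touched, with a highest fed array of 12.79 and a lowest fasted array of 12.77. It rose 1.56-fold with fasting in LWT (0.64, SE 0.13, adjusted p = 0.00048). Without LWT_Fasted replicate 3 the change was 0.57 (adjusted p = 0.00246) and with no array weights 0.58 (adjusted p = 0.0093), both under the minimum fold. A dimmer probe, designed on a cDNA not matched to RefSeq, gave -0.022 in LWT (adjusted p = 0.886), and 0.41 between genotypes in fasted mice (adjusted p = 0.0146), where the brighter probe gave -0.04. In LKO the change was 0.33 (95% interval 0.01 to 0.65, adjusted p = 0.088), and the interaction was -0.31 (95% interval -0.74 to 0.11, adjusted p = 0.363).

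Slc38a4, the liver-enriched system A carrier SNAT4, rose 1.29-fold with fasting in LWT (adjusted p = 0.000168), with no overlap of the groups, and 1.19-fold in LKO (adjusted p = 0.0158). A second, dimmer probe of the same RefSeq transcript rose 1.81-fold in LWT (0.86, SE 0.08, adjusted p = 3.66e-08), which was called, and gave 0.35 in LKO (adjusted p = 0.00519). On that probe the interaction was -0.51 (SE 0.13, adjusted p = 0.0152) and the difference in fed mice 0.28 (adjusted p = 0.0238), where the brighter probe gave -0.12 and 0.14 and passed in neither. Slc38a3, the glutamine carrier SNAT3 of system N, fell 1.21-fold in LWT (adjusted p = 0.0162) and 1.46-fold in LKO (adjusted p = 0.000196; without LKO_Fasted replicate 4 -0.59 on the log2 scale and called), and in fasted mice it was 1.22-fold lower in LKO (adjusted p = 0.0483). The other system N carrier, Slc38a5 (SNAT5), fell 1.31-fold with fasting in LKO (-0.39, adjusted p = 0.00203), with the processed signal by 0.73 on the log2 scale (adjusted p = 0.0017), which was called, and in LWT its log2 fold change was -0.18 (adjusted p = 0.0804). Slc38a1 and Slc38a8, both of system A, passed in no comparison on their brightest probes, with log2 fold changes of -0.15 to 0.21 and -0.06 to -0.02 over the 4 pairs of groups. Further, dimmer probes of Slc38a1 passed with fasting in LWT, 1 of the same RefSeq transcript at -0.29 (adjusted p = 0.0235) and 1 designed on a cDNA at -0.28 (adjusted p = 0.0103). The former also passed in fed mice between genotypes (-0.33, adjusted p = 0.0296) and the latter with fasting in LKO (-0.31, adjusted p = 0.0151).

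Slc38a9 encodes a lysosomal carrier that senses arginine for mTORC1. Its brightest probe was 1.47-fold higher in LKO than in LWT in fed mice (0.55, SE 0.09, adjusted p = 0.000158), with 13.00 to 13.48 in LWT_Fed and 13.63 to 13.98 in LKO_Fed and no overlap. It was called with no array weights (0.59, adjusted p = 0.000776) and without LKO_Fed replicate 2 or LWT_Fed replicate 1 (0.59 in each). This probe (chr13:113495110-113495169, mm9, + strand) was designed on a cDNA that was not matched to RefSeq. The probe designed on the RefSeq transcript gave -0.11 (SE 0.06, adjusted p = 0.187), so the probes disagree. With fasting in LWT the brightest probe rose by 0.31 on the log2 scale (adjusted p = 0.00471) and the RefSeq probe gave -0.05 (adjusted p = 0.479). In LKO_Fasted the brightest probe also separated replicates 1 and 2 (mean 14.3) from the other 4 arrays (mean 13.7). It was the 1 carrier of 39 to do so by over 1.5-fold without overlap. The labels do not set these replicates apart, and they lie on slides 3 and 1. No share of all genes is given for this split, so nothing particular to Slc38a9 is read from it. Slc38a6 was 1.17-fold lower in LKO in fed mice (adjusted p = 0.0411) and 1.22-fold lower in fasted mice (adjusted p = 0.0141). Of 3 further, dimmer probes of Slc38a6, 1 passed in both states (-0.19 and -0.29) and with fasting in LKO (-0.20, adjusted p = 0.0243), 1 passed in fed mice alone (-0.31), and 1 passed in no comparison. Slc38a7 (-0.03 to 0.09) and Slc38a10 (-0.15 to 0.08) passed in no comparison on their brightest probes. Without LWT_Fed replicate 3 the change of Slc38a10 with fasting in LKO was -0.16 (adjusted p = 0.0453), and a dimmer probe of another RefSeq transcript of the gene gave -0.34 there (adjusted p = 0.00199).

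Of the proton-coupled carriers 3 were measured, and 1 was called with fasting. Slc36a1 encodes PAT1, which exports small neutral amino acids from the lysosome (probe at chr11:55049533-55049592, mm9, + strand). Its lowest, median and highest log2 signals were 9.12, 9.19 and 9.31 in LWT_Fed, 7.47, 7.91 and 8.28 in LWT_Fasted, 9.045, 9.12 and 9.38 in LKO_Fed and 7.75, 7.79 and 8.06 in LKO_Fasted. Every fasted array was below every fed array in both genotypes.

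Slc36a1 fell 2.46-fold in LWT (-1.298, SE 0.10, adjusted p = 5.78e-10) and 2.48-fold in LKO (-1.31, SE 0.11, adjusted p = 3.29e-09), the largest falls among the 39. A second, dimmer probe of the same transcript (mean authors' log2 value 6.12, against 8.52) gave -0.04 (adjusted p = 0.699) and 0.04 (adjusted p = 0.702). So 1 of 2 probes gave the fall, and whether a probe so dim could show it was not tested. Slc36a4, a carrier of proline and tryptophan, ran from 6.62 to 6.83 in LWT_Fasted and from 6.96 to 7.60 in LKO_Fasted, without overlap. It was 1.47-fold higher in fasted LKO mice (0.55, SE 0.08, adjusted p = 4.67e-05), 1.16-fold higher in fed LKO mice (0.21, adjusted p = 0.0432), and rose 1.32-fold with fasting in LKO (adjusted p = 0.00035). With the software's processed signal in place of the median signal, the difference in fasted mice was 0.81 (adjusted p = 5.81e-05) and called, as it was without LKO_Fasted replicate 2 (0.64) or LWT_Fasted replicate 6 (0.59). The probe used for Slc36a2 was 1.14-fold higher in fed LKO mice (adjusted p = 0.0302). It was designed on a transcript not matched to RefSeq, and the gene's RefSeq probe was well above background on 0 of 24 arrays.

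**Figure D3:**
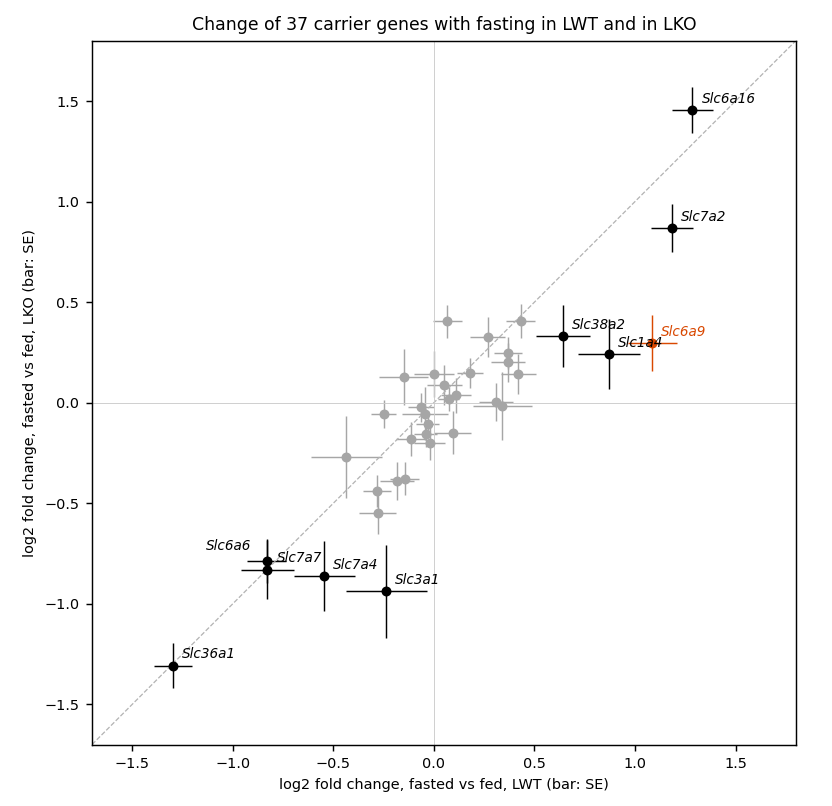
Log2 fold change of 37 of the 39 carriers (Slc6a4 left out) in fasted against fed mice, LWT on the x axis and LKO on the y axis, with SE bars, a dashed line at equal change, black named genes called in at least 1 genotype and orange for the gene also called in the interaction. Slc6a9 lies at 1.09 in LWT and 0.30 in LKO, below the line, whereas Slc36a1 lies on it.

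Family Slc43 holds carriers of large neutral amino acids. Slc43a1, the branched-chain carrier LAT3 (probe at chr2:84703578-84703637, mm9, + strand), ran from 8.71 to 9.22 in LWT_Fed and from 9.05 to 9.71 in LKO_Fed, with overlap. It was 1.52-fold higher in fed LKO mice (0.61, SE 0.15, adjusted p = 0.0075), and the difference in fasted mice was 0.25 (95% interval -0.10 to 0.59, adjusted p = 0.316). Without LKO_Fed replicate 2 or 3 or LWT_Fed replicate 1 the fed difference was 0.56 to 0.58 (highest adjusted p = 0.0234), and with no array weights it was 0.53 (adjusted p = 0.046), each under the minimum fold. A second probe of the same transcript gave 0.09 (adjusted p = 0.462). Slc43a3, a purine base carrier by function, rose 1.29-fold with fasting in LWT (adjusted p = 0.00105), and the brightest probe of Slc43a2 (LAT4) passed in no comparison, with log2 fold changes of -0.22 to 0.09. A second probe of the same RefSeq transcript, nearly as bright, rose with fasting 2.12-fold in LWT (1.08, SE 0.24, adjusted p = 0.000838) and 2.61-fold in LKO (1.38, SE 0.28, adjusted p = 0.000308), both called, so the probes disagree.

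**Figure D4:**
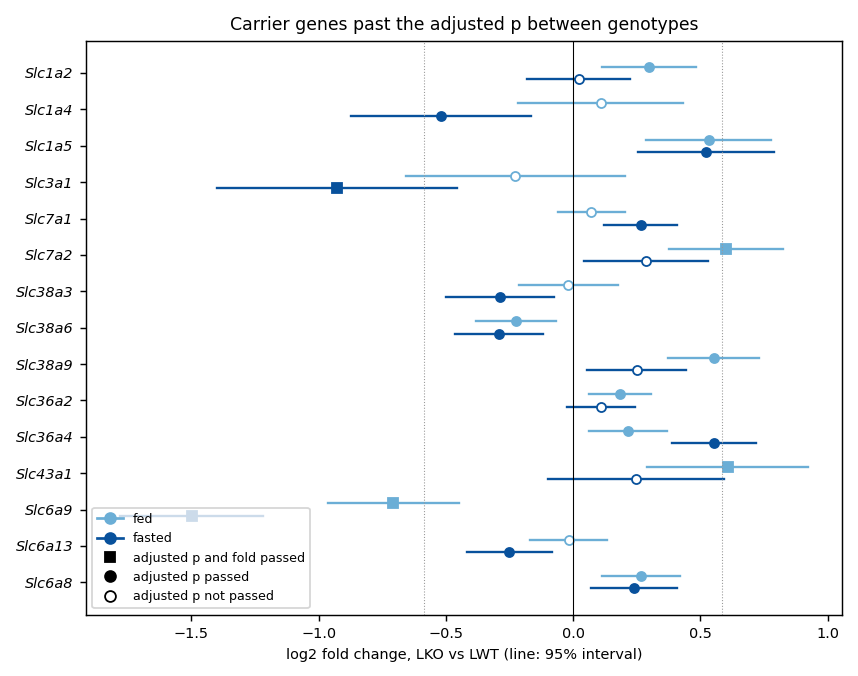
Log2 fold change in LKO against LWT (x axis) of 15 carriers that passed the adjusted p in fed or fasted mice (Slc6a4 left out), with 95% intervals (light blue fed, dark blue fasted, squares past the adjusted p and the minimum fold, filled circles past the adjusted p alone, open circles neither). Slc6a9 lies at -0.71 in fed and -1.498 in fasted mice, and Slc1a5 at 0.53 and 0.52.

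The remaining carriers belong to family Slc6, which also carries neurotransmitters and osmolytes. Slc6a16 encodes an orphan member with no settled substrate (probe at chr7:52528430-52528489, mm9, + strand). Its lowest, median and highest log2 signals were 6.74, 6.88 and 7.04 in LWT_Fed, 7.97, 8.21 and 8.48 in LWT_Fasted, 6.63, 6.85 and 7.25 in LKO_Fed and 7.49, 8.36 and 8.55 in LKO_Fasted. All fasted arrays were above all fed arrays of their genotype. It rose 2.44-fold in LWT (1.29, SE 0.10, adjusted p = 1.24e-09) and 2.74-fold in LKO (1.45, SE 0.115, adjusted p = 1.29e-09), the largest rises among the 39. Its single probe was designed on a predicted transcript that was not matched to RefSeq.

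Slc6a6 encodes the taurine carrier TauT (probe at chr6:91708620-91708679, mm9, + strand). Its lowest, median and highest log2 signals were 11.98, 12.16 and 12.39 in LWT_Fed, 10.89, 11.33 and 11.58 in LWT_Fasted, 12.01, 12.25 and 12.35 in LKO_Fed and 11.21, 11.48 and 11.80 in LKO_Fasted. Fed and fasted arrays did not overlap in either genotype. It fell 1.78-fold in LWT (-0.83, SE 0.10, adjusted p = 4.76e-07) and 1.73-fold in LKO (-0.79, SE 0.11, adjusted p = 5.83e-06). A second probe of the same transcript gave -0.74 (adjusted p = 7.35e-06) and -1.09 (adjusted p = 2.31e-07), and a dimmer probe designed on another cDNA gave 0.03 (adjusted p = 0.833) and 0.17 (adjusted p = 0.252).

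Slc6a8, the creatine carrier, rose 1.35-fold with fasting in LWT (adjusted p = 4.16e-05) and 1.32-fold in LKO (adjusted p = 0.000383), without overlap in either. It was also 1.202-fold higher in LKO in fed mice (adjusted p = 0.0149) and 1.18-fold higher in fasted mice (adjusted p = 0.0379). A second, dimmer probe of the same RefSeq transcript gave 0.16 (adjusted p = 0.127) and 0.14 (adjusted p = 0.262) with fasting in LWT and LKO, and passed between genotypes at 0.30 (adjusted p = 0.0189) in fed and 0.28 (adjusted p = 0.0409) in fasted mice. Slc6a13, the GABA and taurine carrier GAT2, fell 1.2995-fold with fasting in LKO (adjusted p = 0.000662) and was 1.19-fold lower in fasted LKO than in fasted LWT mice (adjusted p = 0.0275). Slc6a7, a proline carrier, fell 1.22-fold in LWT (adjusted p = 0.00201) and 1.36-fold in LKO (-0.44, adjusted p = 0.000113), where the processed signal gave -0.69 (adjusted p = 3.06e-05), which was called. The betaine carrier Slc6a12 (-0.20 to 0.10) passed in no comparison.

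Slc6a4, the serotonin transporter, is no amino acid carrier and entered by its family name. It was dim, being well above background on 3, 6, 1 and 5 of 6 arrays in LWT_Fed, LWT_Fasted, LKO_Fed and LKO_Fasted. The lowest, median and highest log2 signals of Slc6a4 were 5.81, 6.02 and 6.199 in LWT_Fed, 6.02, 6.38 and 6.71 in LWT_Fasted, 5.41, 5.66 and 5.94 in LKO_Fed and 5.91, 6.24 and 6.52 in LKO_Fasted, and the fed and fasted arrays overlapped in both genotypes. It passed the filter only through its fasted groups, so no p-value is given for it. Counts set beside shares of all genes are also given without it where they hold it. Other counts and the medians include it, such as those of outlying arrays and of alternatives, and its calls there are not read as results. Its fold changes depended on the signal used: with the software's processed signal the log2 value with fasting was 1.74 in LKO and 0.86 in LWT, against 0.63 and 0.37, and between genotypes in fed mice -1.02 against -0.36.

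In all, on the probes used, 12 of 39 carriers were called in at least 1 comparison, or 11 without Slc6a4, where 19.4% of all genes were. The adjusted p passed in at least 1 comparison for 29, or 28 without Slc6a4, where it did for 68.2% of all genes, and in none for 10. Of these 10, 4 passed on another probe (Slc38a1, Slc38a10, Slc3a2 and Slc43a2), and Slc38a4 and Slc43a2 were called on another probe alone. Further RefSeq probes of Slc38a1, Slc38a8 and Slc7a8 were well above background on 0 of 24 arrays, and those of Slc6a7 and Slc7a15 on 1. The 12 gave 22 called results, 1 of them of Slc6a4, of which 21 compare 2 groups. Groups did not overlap in 15 of these 21, and 20 of the 22 had the same sign on all 3 slides, the exceptions being both Slc3a1 results. Both counts come from results already selected as called on the same arrays, and no share for all called genes stands beside them. They therefore show nothing particular to carriers. A further tested probe existed for 5 of the 12, and of the 7 called results of those genes, 2 (both of Slc6a6) were also called with another probe.

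Some carriers lie side by side on the genome. Among protein-coding genes of RefSeq, Slc38a1, Slc38a2 and Slc38a4 follow each other without a gene between, as do Slc36a2 and Slc36a1, and Slc6a13 and Slc6a12. With fasting in LWT, log2 fold changes of the probes used in the first row were -0.15 (Slc38a1, adjusted p = 0.335), 0.64 (Slc38a2) and 0.37 (Slc38a4). Slc36a1 fell while the probe used for its neighbour Slc36a2 gave a log2 fold change of -0.03 (adjusted p = 0.692).

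Promoter windows were held for 28 of the 40 carriers, 45 windows in all. The ATF4 composite element TGATGNAA, the site of the amino acid stress response, was in windows of Slc1a4 and Slc7a7 on either strand, 3 of 45 windows, of which 2 are overlapping windows of Slc7a7 that share 1 element, and 3.97% of all 32851 windows hold it. The CRE TGACGTCA was in 1 window, that of Slc38a6, against 1.79% of all, and the FOXO core GTAAACA was in none, against 3.65%. The glucocorticoid receptor element was in none either, against 0.475%. Slc1a4 rose and Slc7a7 fell with fasting in LWT. Their windows are shown because they hold the element of this response, in capitals (GRCm38.p6, chr11:20332664-20332963, - strand, and chr14:54417895-54418194, - strand; in Slc1a4 the element reads on the opposite strand).
Slc1a4: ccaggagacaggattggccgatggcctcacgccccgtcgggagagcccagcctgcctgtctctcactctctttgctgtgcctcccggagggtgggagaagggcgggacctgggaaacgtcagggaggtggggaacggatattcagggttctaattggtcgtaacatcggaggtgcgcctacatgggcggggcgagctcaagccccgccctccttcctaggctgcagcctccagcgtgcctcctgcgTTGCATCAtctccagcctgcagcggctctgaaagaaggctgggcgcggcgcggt
Slc7a7: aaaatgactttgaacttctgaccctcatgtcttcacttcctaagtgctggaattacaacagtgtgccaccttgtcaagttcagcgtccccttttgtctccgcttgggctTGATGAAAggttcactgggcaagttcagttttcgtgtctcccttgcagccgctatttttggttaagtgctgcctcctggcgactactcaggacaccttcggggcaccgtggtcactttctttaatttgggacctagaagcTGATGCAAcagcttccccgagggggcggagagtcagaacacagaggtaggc
Counted from the start site, the element begins at -4 in Slc1a4 and at -141 and -1 in this window of Slc7a7. A match is a description of the letters and no binding was measured.

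Beside the carriers stand the genes that sense amino acids, 19 of 20 listed being measured. With fasting, 4 rose and none fell in LWT, where 4.83% of all genes rose and 5.25% fell, and 2 rose and 3 fell in LKO, where 5.92% rose and 6.94% fell. Trib3, a pseudokinase induced by ATF4, rose by 1.22 on the log2 scale in LWT (SE 0.15, adjusted p = 6.92e-07) and by 1.11 in LKO (SE 0.17, adjusted p = 1.47e-05). Sesn2, a leucine sensor, rose in LWT (0.72, adjusted p = 3.27e-07), as did Chac1, which degrades glutathione (1.3002, adjusted p = 0.00437). Atf5, a factor of the stress response, rose in LKO (1.43, adjusted p = 8.69e-10), and Ddit4, an inhibitor of mTORC1, fell in LKO (-1.90, adjusted p = 5.79e-05). The interaction called 2 of the 19, where 3.53% of all genes were called, Atf5 at 0.85 (adjusted p = 0.000927) and Ddit4 at -1.38 (adjusted p = 0.0449). Atf4 itself fell by 0.27 on the log2 scale in LWT (adjusted p = 0.0354) and by 0.32 in LKO (adjusted p = 0.036), and Asns gave 0.32 (adjusted p = 0.641) and 0.91 (adjusted p = 0.205).

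Enzymes that use the carried amino acids were all measured. Of 20, 5 rose and none fell with fasting in LWT (4.83% and 5.25% of all genes), and 5 rose and 2 fell in LKO (5.92% and 6.94% of all genes). Got1, which links aspartate to the malate shuttle, rose by 2.02 in LWT (adjusted p = 7.18e-09) and by 1.61 in LKO (adjusted p = 1.16e-06), and so did Tdo2, which opens the ring of tryptophan (1.17, adjusted p = 1.42e-09, and 1.12, adjusted p = 1.74e-08). Sds, a serine dehydratase, rose in LWT (1.45, adjusted p = 1.92e-06) and was called in the interaction (-1.07, adjusted p = 0.0224), as was Hal, the histidine ammonia-lyase (-1.15, adjusted p = 0.00371). Sds and Hal are also markers of periportal hepatocytes. Of the 6 periportal markers, 2 were called in the interaction, where 3.53% of all genes were, the median of the list there being -0.54, and of the 7 pericentral markers 1 was called, with a median of -0.05. Their part in the Slc6a9 result was not tested.

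Of 19 listed carriers and partners outside the 7 families, 13 were measured, with 1 called higher and 2 lower with fasting in LWT and 1 higher and 3 lower in LKO, beside the same shares of all genes. Slc25a22, a mitochondrial glutamate carrier, rose by 1.84 on the log2 scale in LWT (SE 0.12, adjusted p = 1.2e-10) and by 1.78 in LKO (SE 0.14, adjusted p = 1.37e-09). Slc25a44, which takes branched-chain amino acids into mitochondria, fell in both (-0.83, adjusted p = 4.75e-10, and -0.585, adjusted p = 4.77e-07). Mfsd12, which takes cysteine into lysosomes, also fell in both (-0.67, adjusted p = 1.86e-06, and -0.69, adjusted p = 7.46e-06). Slc17a5, a lysosomal sialic acid carrier, was higher in fed LKO mice (1.43, adjusted p = 0.00381), and Slc17a8, a vesicular glutamate carrier, was lower in LKO in fed (-0.94, adjusted p = 0.000167) and fasted mice (-0.75, adjusted p = 0.00192).

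The 20 carriers named on the array that the rule left out included Slc1a1, Slc7a6, Slc7a9, Slc7a10 and Slc7a11. None of their probes was well above background on more than 7 of 24 arrays, and 10 of the 20 had no array well above background. Slc7a9 reached 6 arrays, Slc7a6 3, Slc7a10 2, Slc7a11, the cystine exchanger of the stress response, 2 and Slc1a1 0. These genes were not tested here.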

How the data were processed

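Livers were profiled on 24 one-colour Agilent arrays, 1 per mouse. Per the file headers, the spot intensity values are median, mean, background and processed signals from Feature Extraction 10.10.1.1, not scaled between arrays. The authors filtered the median signal, took log2, corrected it for the washing bath and quantile normalized it, and deposited these log2 values for 32595 probes. The bath and the filter rule are not given in the sources used here.

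Outlier spots and control spots were left out and spots of 1 probe averaged. A probe was kept if well above background on at least 5 of 6 arrays of at least 1 group, which left 32197 of 56605 probes. Their log2 median signals were quantile normalized. Group means, slide (3 slides of 8 arrays, 2 of each group) and array weights were fitted with limma 3.58.1 in R 4.3.3, with Benjamini-Hochberg adjustment over all probes. The fit was tested on simulated data. Mice are separate, and their number limits the precision.

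The carriers, the lists and the tests were chosen with earlier results of these data known. Named were all carriers called in at least 1 of 5 contrasts and a fixed list of carriers known from liver or amino acid stress, and further carriers where they passed the adjusted p or completed a role group. The values of 1 carrier are not reported here, although the counts include it. Alternatives changed the signal, background correction, filter, weights, slide term, arrays and fold minimum. Promoter windows came from RefSeq (GRCm38.p6), and probe positions are those of the files (mm9).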

Additional observations from a re-analysis of the deposited data

Results flagged for a closer look

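Among the 12 called carriers, 6 of 48 groups of 6 arrays held an array far from the others of its group, and over all 39 carriers 15 of 156 groups did. Chance gives about 5% of groups. In LKO_Fasted, replicate 4 was high for Slc3a1 (11.88, nearest array 9.62), Slc38a2 (14.12, nearest 13.28) and Slc7a2 (12.47, nearest 11.74), and low for Slc6a16 (7.49, nearest 8.27). In LKO_Fed, replicate 1 was high for Slc7a4 (9.27, nearest 8.07) and replicate 6 low for Slc43a1 (9.05, nearest 9.49).

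Without LKO_Fasted replicate 4, the log2 fold change with fasting in LKO was 1.515 for Slc6a16 (adjusted p = 2.59e-10 from limma), 0.80 for Slc7a2 (adjusted p = 2.29e-06) and 0.27 for Slc38a2 (adjusted p = 0.153).

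For Slc6a9 the fasting effects of both genotypes differed by the test of the difference itself, at -0.79 on the log2 scale (adjusted p = 0.00921 from limma).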

How the results depend on the processing

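The carriers called numbered 8 with fasting in LWT, 8 with fasting in LKO, 3 between genotypes in fed mice, 2 in fasted mice and 1 in the interaction. The 8 with fasting in LKO hold Slc6a4. With no minimum fold change these were 21, 16, 11, 10 and 1, with Slc6a4 among those of fasting in LWT, fasting in LKO and fed mice. Without Slc6a4, 12 rose and 8 fell with fasting in LWT, and 6 rose and 9 fell in LKO. In fed mice 8 were higher and 2 lower in LKO without it. With the processed signal, 10 were called with fasting in LWT (Slc6a4 and Slc7a4 added), 10 in LKO (Slc38a5 and Slc6a7 added), 5 in fed mice (Slc1a5 and Slc6a4 added) and 4 in fasted mice (Slc1a5 and Slc36a4 added). With no array weights 7 were called with fasting in LWT (Slc38a2 lost), 6 in LKO (Slc3a1 and Slc6a4 lost), 3 in fed mice (Slc43a1 lost and Slc38a9 added) and 1 in fasted mice (Slc3a1 lost), without LKO_Fasted replicates 1 and 2 together there were 4, and with the slide row as a term the interaction called 2 (Slc1a4 added). The cause of these shifts was not tested. Shares of all genes under these settings are not given here, so shifts of the carriers cannot be told from shifts of all genes. The same holds for the fits below.

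With each of the 24 arrays left out in turn, counts ran from 7 to 9 with fasting in LWT and in LKO, from 1 (without LKO_Fed replicate 3) to 4 (without LWT_Fed replicate 4) in fed mice, from 2 to 4 (without LKO_Fasted replicate 2 or LWT_Fasted replicate 6) in fasted mice, and from 1 to 2 in the interaction (without LKO_Fasted replicate 4, LWT_Fasted replicate 1 or LWT_Fasted replicate 4). Of 22 called results, 17 were called in all 24 such fits, and 15 kept their call under every alternative other than another probe. Over 821 gene-level alternatives, 796 kept direction and call, 21 lost the call and 4 turned sign. The 4 came from other, dimmer probes: with fasting, Slc38a2 in LWT at -0.022, Slc6a6 at 0.031 in LWT and 0.17 in LKO, and Slc36a1 in LKO at 0.045.

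Replicate numbers are shared between groups, but same-numbered arrays did not deviate together: of 36 pairs, 4 correlated above 0.1 (range -0.18 to 0.28). With the replicate block in place of slide, 8, 8, 2, 3 and 1 carriers were called. Slc7a2 lost its call in fed mice (0.57, adjusted p = 0.00309) and Slc36a4 gained 1 in fasted mice. Fold changes close to 1.5 and carriers near background, such as Slc6a4, are the least firmly placed.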
